A study of Mus musculus with 24 samples.

Results

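The miR-183, miR-96 and miR-182 cluster is a group of 3 microRNAs (miRNAs) that lie side by side in the mouse genome, and its expression was followed here across mammary tumor progression. Its members were the rows of the deposited miRNA count table named mir-183, mir-96 and mir-182, 3 of 510 listed miRNAs. In all, 364 miRNAs had at least 1 count and 237 passed the filter on low counts, the 3 members among them. Tumor tissue came from female mice of the FVB strain that carried 1 copy of MMTV-PyMT, a transgene in which the mouse mammary tumor virus promoter drives the polyoma virus middle T oncogene, mainly in mammary epithelium. It was taken at week 6 (hyperplasia), week 8 (adenoma or mammary intraepithelial neoplasia), week 10 (early carcinoma) and week 12 (late carcinoma). Normal tissue was mammary gland of FVB females of the same ages without the transgene. Each genotype and week had 3 libraries, each from another mouse, so 24 small RNA libraries were compared. The p-values measure the spread between libraries, in which mouse, library preparation and sequencing lane are held together. All libraries were made from whole tissue, in which fewer cells of a type and less RNA per cell cannot be told apart.

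miRNAs are short RNAs that lower the output of target mRNAs, which they recognise mainly through the seed, the bases near their 5′ end. The members of this cluster are processed from a shared primary transcript, are abundant in sensory cells of the eye and ear and in other epithelia, and have been found raised in many carcinomas. miR-182 and miR-96 are known to repress FOXO transcription factors, which restrain cell division, and changes in the seed of miR-96 cause hearing loss.

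The mature sequences are shown because the members differ in the seed while sharing most of it. Each 5p arm, the strand known to give most of the mature product, is written 5′ to 3′ as in RefSeq (build GRCm38.p6), with the seed, bases 2 to 8, in capitals.
miR-183-5p: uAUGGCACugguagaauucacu
miR-96-5p: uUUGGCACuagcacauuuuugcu
miR-182-5p: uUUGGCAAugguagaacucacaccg
Counted from 1 at the 5′ end, the seed of miR-183 differed from that of miR-96 by A2U (miR-183 has A and miR-96 has U), and 6 of 7 seed bases were the same. The seed of miR-96 differed from that of miR-182 by C8A, again with 6 of 7 bases the same. miR-183 and miR-182 differed by both A2U and C8A, so that 5 of 7 seed bases were shared. Over the whole arms the order of likeness was another one. Aligned from the 5′ end without gaps, miR-183 and miR-182 shared 18 of 22 bases, miR-183 and miR-96 shared 13 of 22, and miR-96 and miR-182 shared 12 of 23. Among the mature mouse miRNAs of RefSeq, the seed of miR-96-5p was also that of miR-1271-5p, which was not analysed here, and the 5p seeds of miR-183 and miR-182 were found in no other mature miRNA. The counts were given per miRNA name, so the 5p and 3p arms were not told apart.

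In build mm9 the hairpins lie on the minus strand of chromosome 6. The hairpin of miR-183 spans chr6:30119668-30119737 (70 bases), that of miR-96 chr6:30119446-30119551 (106 bases) and that of miR-182 chr6:30115918-30115992 (75 bases). No other annotated gene overlapped any of them, so all 3 are intergenic. The miR-96 hairpin began 186 bases downstream of the 5′ end of the miR-183 hairpin, whereas the miR-182 hairpin began 3745 bases downstream, so miR-183 and miR-96 are close neighbours and miR-182 stands apart.

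**Figure D1:**
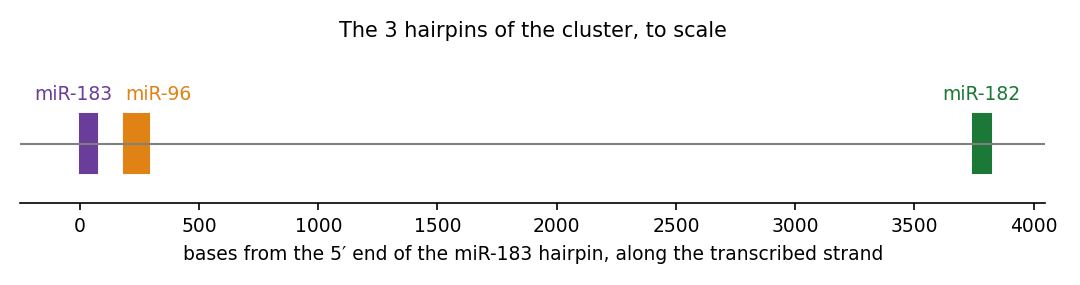
Map of the hairpins of miR-183, miR-96 and miR-182, drawn to scale along the transcribed strand in bases from the 5′ end of the miR-183 hairpin (horizontal axis). miR-183 and miR-96 lie within the first 291 bases and miR-182 starts at base 3745.

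Total counts per library were between 1032241 and 2213972 in tumor and between 1626022 and 3931375 in normal. The cluster made up 3.63 to 5.59% of all counts in the tumor libraries (median 4.515%) and 0.775 to 1.54% in the normal libraries (median 1.11%). Ranked by count, miR-182 was between the 4th and the 7th miRNA of each tumor library and between the 17th and the 23rd of each normal library. miR-183 ranked 13 to 22 in tumor and 33 to 64 in normal, and miR-96 had a median rank of 119.5 in tumor and 149 in normal. The smallest count of any member in a library was 51, for miR-96 in a normal library of week 6, so every member was counted well above 3 counts in every library. Within a library, miR-182 had 2.14 to 5.78 times the counts of miR-183 (median 3.17) and 121 to 390 times those of miR-96 (median 217). Counts also reflect how readily each sequence is ligated and amplified, which was not tested.

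All 3 members were over-expressed in tumor at each of the 4 time points, by between 2.82- and 5.40-fold, as described for each below. Levels are CPM (counts scaled to a fixed library total) with TMM, a normalization that assumes that most miRNAs do not differ between libraries. Differences are log2 fold changes of tumor over normal with their standard error (SE), tested in edgeR by quasi-likelihood. The p-values were adjusted after Benjamini and Hochberg over the 237 tested miRNAs, with a threshold of 0.05. Of all tested miRNAs, 29.1% were over-expressed in tumor at week 6 by the same rule, then 21.9%, 32.9% and 29.1% at the following weeks, and 18.6% at all 4. In either direction 139, 84, 143 and 120 of the 237 passed at weeks 6, 8, 10 and 12, which strains the assumption of TMM.

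miR-183, whose hairpin lies first in the cluster, had the largest log2 fold change of the members at each week. At week 6 its level was 10482, 10172 and 10715 CPM in tumor and 1328, 2682 and 3682 CPM in normal. The tumor libraries were nearly equal while the normal libraries were spread, and the log2 fold change was 2.03 (SE 0.34, n = 3 per group, edgeR adjusted p = 0.002988). At week 8 it was 12455, 16071 and 12798 CPM in tumor against 1711, 3121 and 4140 CPM in normal. Every tumor library was again above every normal one, and the difference was 2.19 (SE 0.31, n = 3, edgeR adjusted p = 0.003014). Week 10 gave 14472, 12405 and 9522 CPM in tumor and 2406, 2168 and 4065 CPM in normal. The lowest tumor library remained above the highest normal library, with a log2 fold change of 2.08 (SE 0.27, n = 3, edgeR adjusted p = 9.43e-04). At week 12 the tumor libraries held 9608, 11239 and 11573 CPM and the normal libraries 1450, 2537 and 2005 CPM. This was the widest difference for miR-183, at 2.43 (SE 0.25, n = 3, edgeR adjusted p = 3.56e-04), or 5.40-fold. Among the tested miRNAs, miR-183 ranked between 13 and 19 by log2 fold change over the 4 weeks.

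miR-96, the least counted member, showed the same direction from a much lower level. Its week 6 levels were 129, 122 and 131 CPM in tumor and 24.1, 42.6 and 68.5 CPM in normal. As for miR-183, the normal libraries were spread and the tumor libraries were not, and the log2 fold change of 1.5 (SE 0.37, n = 3, edgeR adjusted p = 0.01308) was the smallest of any member at any week. At week 8 the levels were 148, 183 and 171 CPM in tumor and 41.9, 48.8 and 61.4 CPM in normal. The groups stayed apart, by 1.70 (SE 0.27, n = 3, edgeR adjusted p = 0.003659). At week 10 the tumor libraries gave 218.5, 103 and 153 CPM and the normal libraries 43.1, 31.8 and 62.7 CPM. Tumor here held both the highest and the lowest tumor level of miR-96 in the series, and the difference was 1.79 (SE 0.36, n = 3, edgeR adjusted p = 0.005224). Week 12 gave 133, 155.5 and 162 CPM in tumor and 25.3, 43.7 and 27.9 CPM in normal. The log2 fold change was then 2.22 (SE 0.27, n = 3, edgeR adjusted p = 7.63e-04), or 4.66-fold. By log2 fold change miR-96 ranked between 19 and 32 of the tested miRNAs.

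miR-182, the most counted member, had the narrowest spread in normal gland. At week 6 it was at 27457, 29882 and 26365 CPM in tumor and at 7023, 8888 and 8308 CPM in normal. Both groups were tight, and the log2 fold change was 1.79 (SE 0.15, n = 3, edgeR adjusted p = 2.58e-04). At week 8 tumor libraries had 34105, 51636 and 32914 CPM and normal libraries 9890, 9456 and 8874 CPM. The second tumor library, the shallowest of the series at 1032241 counts, was in CPM the highest of all for both miR-182 and miR-183. As a share of all counts, miR-183 was higher in the first tumor library of week 10 (1.515% against 1.324%). The miR-182 difference was 2.03 (SE 0.25, n = 3, edgeR adjusted p = 0.001886). At week 10 the values were 37389, 40306 and 32673 CPM in tumor and 8679, 7722 and 11139 CPM in normal. The groups were apart by 2.0 (SE 0.17, n = 3, edgeR adjusted p = 1.26e-04). At week 12 they were 29382, 37323 and 43348 CPM in tumor and 8176, 7923 and 7605 CPM in normal. The difference of 2.21 (SE 0.23, n = 3, edgeR adjusted p = 3.62e-04) corresponded to 4.62-fold. Its rank by log2 fold change was between 20 and 22 at all 4 weeks.

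**Figure D2:**
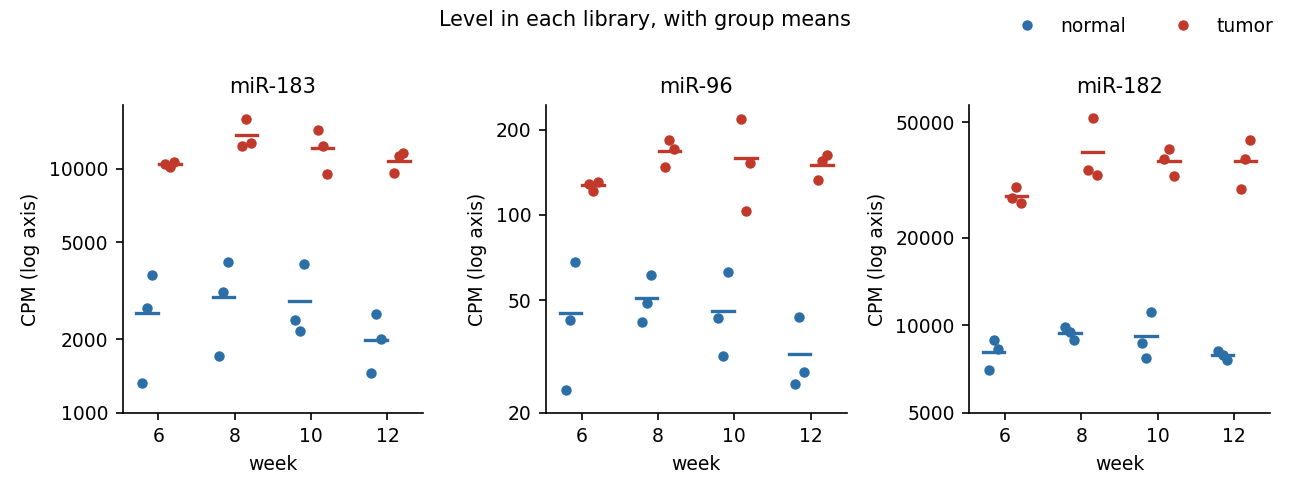
Level of miR-183, miR-96 and miR-182 in each of the 24 libraries (points), with the mean of the 3 libraries of each group (bars), in CPM on a log axis against week. For each member the 12 tumor libraries lie above the 12 normal libraries, with the lowest tumor level 2.30, 1.51 and 2.37 times the highest normal level.

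The groups of 3 did not overlap for any member at any week. A tumor group wholly above its normal group was found for 34.2% of the tested miRNAs at week 6 and for 32.1%, 36.3% and 33.3% at the following weeks. Over all weeks together, the 12 tumor libraries were above the 12 normal libraries for each member, as for 18.6% of the tested miRNAs. The lowest tumor level was 2.30 times the highest normal level for miR-183, 1.51 times for miR-96 and 2.37 times for miR-182. Averaged over the 4 weeks in 1 fit of all libraries, the log2 fold change was 2.19 (SE 0.17, edgeR adjusted p = 1.08e-09) for miR-183. It was 1.81 (SE 0.17, edgeR adjusted p = 1.19e-08) for miR-96 and 2.02 (SE 0.09, edgeR adjusted p = 5.58e-13) for miR-182. In that average 38.8% of the tested miRNAs were over-expressed. The median log2 fold change over all tested miRNAs was −0.12, −0.09, −0.15 and −0.19 at weeks 6, 8, 10 and 12, so the members were far from the bulk of miRNAs at each week.

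**Figure D3:**
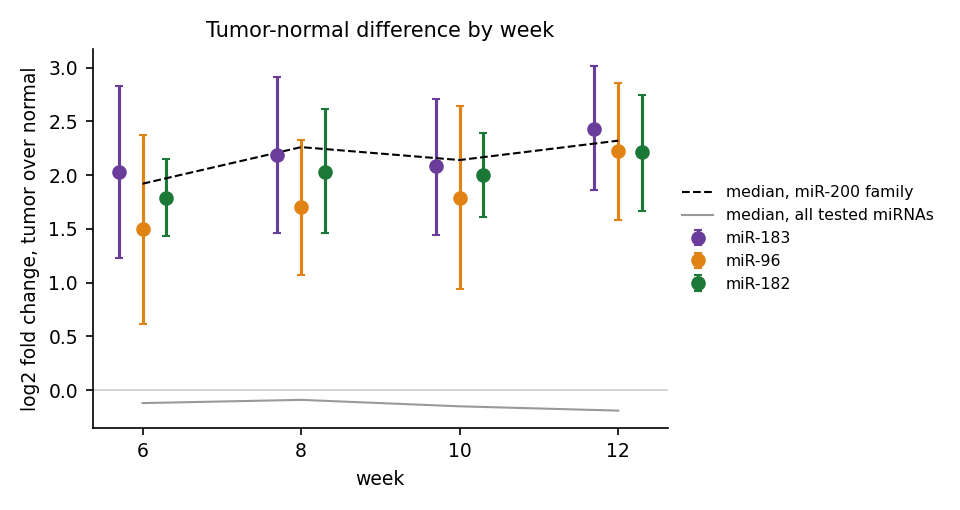
Log2 fold change of tumor over normal (vertical axis) at each week for the 3 members, with 95% confidence intervals from edgeR, n = 3 libraries per group. The dashed line is the median of the 5 miR-200 family miRNAs and the grey line that of all 237 tested miRNAs; the members lie near the dashed line, between 1.5 and 2.43.

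The libraries were run on 2 sequencing lanes, each with 6 tumor and 6 normal libraries. The lanes were not balanced over weeks. Libraries numbered 2 were in lane 1 at weeks 6 and 8 and in lane 2 at weeks 10 and 12. The over-expression was recomputed within each lane with a term for week, so the lanes weigh the weeks differently. For miR-183 the log2 fold change was 2.53 (SE 0.20, edgeR adjusted p = 2.53e-06) in lane 1 and 1.87 (SE 0.18, edgeR adjusted p = 1.36e-05) in lane 2. For miR-96 it was 2.05 (SE 0.19, edgeR adjusted p = 6.09e-06) and 1.56 (SE 0.23, edgeR adjusted p = 2.06e-04). miR-182 had the same value in both lanes, 1.99 (SE 0.14 and 0.15). The normal libraries of lane 2 were 0.67 (SE 0.20) above those of lane 1 for miR-183 on the log2 scale and 0.53 (SE 0.22) above for miR-96, with edgeR adjusted p = 0.06645 and 0.1634, and showed no such offset for miR-182 (0.00, SE 0.14). In the tumor libraries the lane offsets were −0.07, −0.11 and −0.02 for miR-183, miR-96 and miR-182. The difference of the tumor-normal contrast between lanes was −0.74 (SE 0.29, edgeR adjusted p = 0.5074) for miR-183, −0.64 (SE 0.32, edgeR adjusted p = 0.6261) for miR-96 and −0.02 (SE 0.20) for miR-182. None of the 3 lane terms passed the threshold for any of the 237 miRNAs (0.00% in each), while 59, 5 and 20 miRNAs had an unadjusted p under 0.05 for the normal, the tumor and the contrast term. The values of miR-183 and miR-96 were thus smaller in lane 2 and past the threshold in both lanes.

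Progression from hyperplasia to late carcinoma was examined next. In order of group means, all 3 members were highest in tumor at week 8, followed by tumor at weeks 10, 12 and 6, and then by normal at weeks 8, 10, 6 and 12. Neighbours in this order overlapped, apart from tumor at week 6 and normal at week 8 for each member, and tumor at weeks 12 and 6 for miR-96. For miR-182 and miR-96 the place of week 8 rested on the scaling by TMM and on single libraries. As a share of all counts, miR-182 had 3.304, 4.255 and 3.4% in tumor at week 8. At week 10 it had 3.913, 4.107 and 3.129%. By this share the mean of week 10 was above that of week 8 for both miR-182 and miR-96. Without the second tumor library of week 8, the shallowest, the miR-182 mean there was 33510 CPM, below weeks 10 and 12, and without the first tumor library of week 12 the mean at week 12 was 40336 CPM, above week 8. For miR-96, week 10 came first (186 CPM) without its second tumor library. In tumor the group means of miR-183 were 10456 ± 272, 13775 ± 1996, 12133 ± 2486 and 10806 ± 1051 CPM (SD, n = 3) from week 6 to week 12. Those of miR-182 were 27901 ± 1800, 39551 ± 10482, 36789 ± 3852 and 36684 ± 7005 CPM. Those of miR-96 were 127 ± 4.93, 168 ± 17.9, 158 ± 57.7 and 150 ± 15.1 CPM. The means after week 6 were thus higher than at week 6 for all 3 members.

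No change over time passed the threshold for any member. The tumor-normal difference at week 12 exceeded that at week 6 by 0.41 (95% CI −0.57 to 1.38, edgeR adjusted p = 0.5785) for miR-183, 0.72 (−0.26 to 1.71, edgeR adjusted p = 0.4315) for miR-96 and 0.43 (−0.11 to 0.96, edgeR adjusted p = 0.4262) for miR-182. The positive sign was common to all 3, and these intervals include both no change and more than a doubling for miR-183 and miR-96. This contrast was passed by 1 of the 237 miRNAs (0.422%), with 31 at an unadjusted p under 0.05. A difference in the contrast between any weeks was passed by 0 miRNAs (0.00%, 9 at an unadjusted p under 0.05). The members had edgeR adjusted p = 0.9706 (miR-183), 0.9477 (miR-96) and 0.938 (miR-182). Since the lanes were not balanced over weeks, a term for lane was also fitted, the same for both genotypes. Such a term cannot take out an offset seen in 1 genotype only. For miR-183 the offset was 0.67 in normal and −0.07 in tumor, and for miR-96 it was 0.53 and −0.11. The change from week 6 to week 12 was then 0.38 for miR-183, 0.70 for miR-96 and 0.43 for miR-182, none past the threshold.

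Within tumor, week 12 differed from week 6 by 0.05 (95% CI −0.64 to 0.74) for miR-183, 0.24 (−0.45 to 0.93) for miR-96 and 0.39 (0.02 to 0.77) for miR-182. Only the interval of miR-182 was wholly above 0, and its edgeR adjusted p was 0.1714, so none of the 3 was among the 7.59% of miRNAs that passed. A change between any weeks in tumor was passed by 0 miRNAs (0.00%, 39 at an unadjusted p under 0.05). Within normal gland the week 12 level differed from week 6 by −0.36 (−1.05 to 0.33) for miR-183, −0.49 (−1.19 to 0.21) for miR-96 and −0.03 (−0.41 to 0.34) for miR-182, with edgeR adjusted p = 0.4967, 0.3451 and 0.9272. The members were not among the 21.1% of miRNAs that passed this contrast in normal, nor among the 13.9% that differed between any weeks there. In these means, the larger tumor-normal value at week 12 was made up mostly of a lower normal level for miR-183 and miR-96, and mostly of a higher tumor level for miR-182. For miR-183 and miR-96 this rested on the libraries numbered 3. Without them the change in the tumor-normal difference was 0.02 and 0.16 and the change in normal −0.01 and 0.04. The split for miR-182 rested on the scaling, with 0.37 in tumor and −0.32 in normal when library sizes alone were used. The study's own rule for progression counts a step between consecutive weeks where the fold change moves by over 0.4 SD of all miRNAs beyond their mean. By it, 0 of 9 steps of the members counted, also when only the 237 filtered miRNAs were used. The steps ranged from −0.32 to 1.07 in fold, while the SD was 8.01, 4.92 and 12.40 for the successive steps. That SD was taken over the 364 miRNAs with at least 1 count, those with few counts included. The share of all miRNAs with a step by this rule was not computed, so the 0 does not set the members apart.

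Ratios between members within a library do not depend on scaling between libraries and were compared next. Labels were exchanged within weeks in a two-sided exact permutation test (160000 assignments, smallest possible p 1.25e-05), with adjustment over the 6 ratios computed. The log2 ratio of miR-96 to miR-183 was between −6.90 and −5.95 in tumor (median −6.28) and between −6.16 and −5.35 in normal (median −5.91). The ranges overlapped, but the ratio was lower in tumor in 10 of 12 pairs of libraries with the same number, which the labels do not say mark related mice. The mean difference was −0.41 (SE 0.10, n = 12 per genotype, exact permutation p = 2.25e-04, adjusted 6.75e-04), so miR-96 rose less than miR-183, leaving 0.754 times the normal ratio. It was −0.53, −0.55, −0.33 and −0.22 at weeks 6, 8, 10 and 12. Within lanes it was −0.46 in lane 1 (adjusted exact permutation p = 0.0417) and −0.32 in lane 2 (0.167).

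Neither of the other ratios between members differed past the threshold. For miR-183 to miR-182 the log2 ratio was between −1.91 and −1.30 in tumor and between −2.53 and −1.10 in normal, so the normal range enclosed the tumor range. The mean difference was 0.24 (SE 0.16, adjusted exact permutation p = 0.185), with 0.61 in lane 1 and −0.13 in lane 2, so its sign changed with the lane. It was −0.07 without the libraries numbered 1 and 0.45 without those numbered 3 (adjusted exact permutation p = 0.0162). For miR-96 to miR-182 the difference was −0.17 (SE 0.16, adjusted exact permutation p = 0.29), with 0.16 in lane 1 and −0.45 in lane 2. As a share of the cluster's counts, miR-182 was 70.9 to 78.7% in tumor and 67.9 to 84.9% in normal, miR-183 was 21 to 28.8% and 14.7 to 31.7%, and miR-96 was 0.196 to 0.420% and 0.262 to 0.568%. The make-up of the cluster varied more from library to library in normal gland than in tumor for miR-183 and miR-182. These ranges pool weeks and lanes, so that the spread between mice and that between lanes are not told apart.

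**Figure D4:**
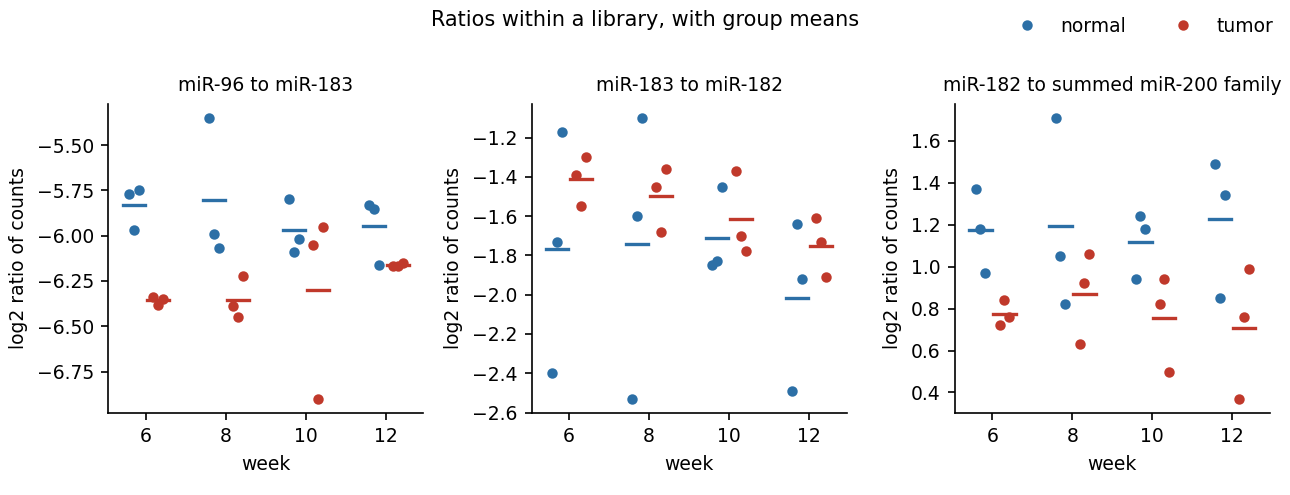
Log2 ratio of counts within each library (points) with the group means of 3 libraries (bars), against week, for miR-96 to miR-183, miR-183 to miR-182 and miR-182 to the summed miR-200 family. The miR-96 to miR-183 ratio is lower in tumor by 0.41 on average, the miR-183 to miR-182 ratio has the widest normal spread, and the miR-182 to miR-200 ratio is lower in tumor by 0.40.

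Since the transgene acts in epithelium, miRNAs known as markers of cell types were set beside the cluster. The miR-200 family holds the epithelial state by repressing ZEB1 and ZEB2, repressors of E-cadherin. All 5 of its members were over-expressed at every week, with a median log2 fold change of 1.92, 2.26, 2.14 and 2.32, and their summed level was 15538 to 27214 CPM in tumor and 2719 to 5010 CPM in normal. Averaged over weeks, the log2 fold change was 2.54 (SE 0.12) for miR-200b, 2.26 (SE 0.13) for miR-429, 2.15 (SE 0.14) for miR-200c, 2.04 (SE 0.13) for miR-200a and 1.66 (SE 0.12) for miR-141, a range that covers the values of the 3 cluster members. Of the 3 other epithelial miRNAs, miR-375 was over-expressed at every week (2.01 to 2.73). miR-205, a marker of basal epithelium, passed at no week (−0.01 to 0.53), and miR-203, found in keratinised epithelium, fell at week 12 (−1.87, edgeR adjusted p = 0.03896) and passed at no other. The summed epithelial list was 19976 to 30660 CPM in tumor and 5724 to 20165 CPM in normal.

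Markers of fibroblasts, smooth muscle and endothelium moved the opposite way. For comparison, 70, 32, 65 and 51 of all 237 tested miRNAs were under-expressed in tumor at weeks 6, 8, 10 and 12. The 5 fibroblast and smooth muscle miRNAs (miR-143, miR-145, miR-199a, miR-199b and miR-214) were all under-expressed in tumor at every week, with a summed level of 70032 to 136943 CPM in tumor and 158619 to 276068 CPM in normal. The endothelial miR-126 was under-expressed at every week (−1.57 to −0.67), with 6568 to 18254 CPM in tumor and 20498 to 37464 CPM in normal. Of 3 tested leukocyte miRNAs, miR-150, of mature lymphocytes, was under-expressed at every week (−2.66 to −0.77) and miR-142 and miR-155 at none. Their sum was 1198 to 1868 CPM in tumor and 1681 to 3241 CPM in normal. A further leukocyte miRNA, miR-223 of granulocytes, had 0 counts. Only 364 of the 510 listed miRNAs had any count, so this 0 does not show that granulocytes were absent. Of 4 adipocyte-linked miRNAs, miR-193b was over-expressed at week 6 (0.68), miR-378 and miR-335 were under-expressed at week 10 and miR-378 at week 12, with sums of 3239 to 15289 and 6751 to 25481 CPM. Of 3 tested skeletal muscle miRNAs, 0, 1, 0 and 3 were under-expressed at the successive weeks, with miR-1 and miR-133b at 0 in some tumor libraries. Their sum, which here includes miR-206, counted but not tested, had the widest range in relative terms. It was 39.9 to 18079 CPM in tumor and 89.0 to 89345 CPM in normal. Of 3 tested erythroid miRNAs, 1, 0, 1 and 3 were under-expressed, with sums of 2060 to 13679 and 7798 to 34558 CPM. The part of tissue make-up in the over-expression of the cluster was not tested. The cluster was instead measured within each library relative to the miR-200 family, which is only a part of the epithelial list. miR-205 and miR-203, left out of this reference, had mean log2 fold changes of 0.29 (SE 0.29) and −0.70 (SE 0.23). Ratios to them were not computed, so the ratios below hold for the miR-200 family only.

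Relative to the summed miR-200 family, no member had a mean difference above 0 between tumor and normal. The log2 ratio of miR-183 to the family was between −1.27 and −0.31 in tumor and between −1.03 and −0.21 in normal. The mean difference was −0.16 (SE 0.12, adjusted exact permutation p = 0.185), which left tumor at 0.894 times the normal ratio. For miR-182 the ratio was between 0.37 and 1.06 in tumor and between 0.82 and 1.71 in normal, lower in tumor in 11 of 12 same-numbered pairs. The mean difference was −0.40 (SE 0.11, exact permutation p = 8.38e-04, adjusted 0.00168), with −0.59 in lane 1 (adjusted 0.0417) and −0.17 in lane 2 (adjusted 0.208). miR-96 gave −0.57 (SE 0.13, exact permutation p = 1.12e-04, adjusted 6.75e-04), lower in 11 of 12 pairs, with −0.43 in lane 1 (adjusted 0.0625) and −0.62 in lane 2 (adjusted 0.0417). These differences depended on how the family was summed. The sum is mostly miR-200b, which had the largest fold change of the family, and against the geometric mean of the 5 miRNAs the differences were 0.10 for miR-183, −0.14 for miR-182 and −0.30 for miR-96, none past the threshold (adjusted exact permutation p = 0.433, 0.219 and 0.0668). miR-182 also missed it without the libraries numbered 1 (−0.23, adjusted 0.0537), while miR-183 then passed it (−0.30, adjusted 0.034).

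The members did not vary together to the same degree. After each group mean was subtracted, the SD of log2 CPM was 0.20 in tumor and 0.59 in normal for miR-183, 0.29 and 0.50 for miR-96, and 0.25 and 0.17 for miR-182. Thus in normal gland miR-183 and miR-96 were variable and miR-182 was not. Over the 24 libraries, which share lanes and library preparation, these deviations had a Pearson correlation of 0.82 for miR-183 and miR-96 (0.92 in normal, 0.45 in tumor). The correlation was 0.43 for miR-183 and miR-182 (0.45 in normal, 0.73 in tumor) and 0.35 for miR-96 and miR-182 (0.59 in normal, 0.15 in tumor). Of the 3 pairs of members, the pair closest on the chromosome had the highest correlation over all libraries, although not within tumor. Its value was below those of miR-183 with miR-20a (0.91), miR-17 (0.89) and miR-187 (0.84), which are not members of the cluster. In the other miRNA clusters set beside it, correlations were 0.81 to 0.89 among miR-200a, miR-200b and miR-429, 0.76 to 0.94 among miR-106b, miR-93 and miR-25, 0.40 to 0.97 among miR-17, miR-18a, miR-19a, miR-20a and miR-92a, 0.40 for miR-200c and miR-141, and 0.63 for miR-143 and miR-145, so the value of miR-96 and miR-182 was the lowest of the pairs listed. In tumor the largest deviations of miR-96 were 0.53 and −0.55, in the first and second libraries of week 10, the second at 114 counts. They weigh heavily on the tumor correlations of miR-96 and on its low value with miR-182. Correlations without these libraries were not computed. All correlations here are descriptions, and no test was made of them.

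**Figure D5:**
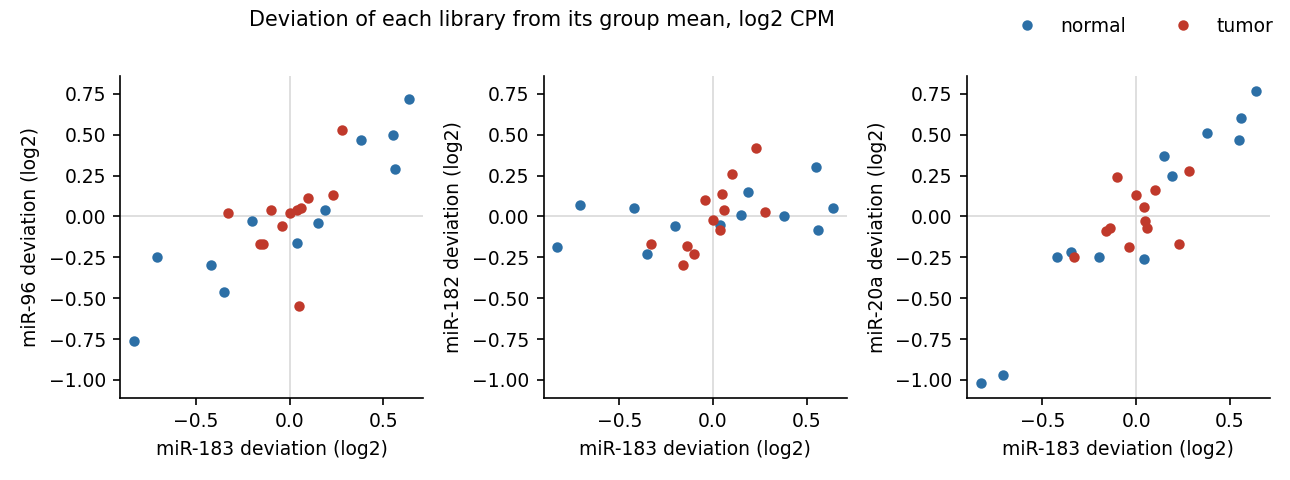
Deviation of each of 24 libraries from its group mean in log2 CPM, with miR-183 on the horizontal axis of every panel and miR-96, miR-182 and miR-20a on the vertical axes. In normal libraries miR-96 and miR-20a follow miR-183 while miR-182 stays near 0 (SD 0.17 against 0.59 for miR-183); tumor libraries are gathered nearer the centre along the miR-183 axis (SD 0.20).

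The miRNAs whose pattern was most like that of the cluster were found by 2 measures over the 234 other tested miRNAs and 24 libraries. By the mean correlation of log2 CPM with the 3 members, which mainly reflects the tumor-normal difference, the first 5 were miR-200b and miR-200a (0.97 each), and miR-429, miR-141 and miR-146b (0.96 each). Of these, 4 belong to the miR-200 family, and miR-146b, known as a brake on NF-kappaB signalling, had a mean log2 fold change of 3.17 (SE 0.13). The fifth member of the family, miR-200c, ranked 19 (0.91). By deviations from the group means, which leave that difference out, the first 5 were miR-187 (0.67), miR-200a (0.66), miR-17 (0.65), miR-141 (0.64) and miR-20a (0.63). miR-17 and miR-20a, of a cluster known for promoting cell division, followed miR-183 (0.89 and 0.91) and miR-96 (0.81 and 0.78) and had low values with miR-182 (0.24 and 0.19). Like miR-183, they had a larger SD of deviations in normal (0.53 and 0.69) than in tumor (0.16 and 0.20). Their normal libraries of lane 2 were also higher than those of lane 1, by 0.39 (SE 0.21) and 0.66 (SE 0.25) on the log2 scale, with edgeR adjusted p = 0.2723 and 0.1266. The part of lane in this shared variation was not tested further.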

How the data were processed

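Small RNA was sequenced from total RNA of snap-frozen mammary tissue of 24 mice. The authors deposited raw counts per miRNA. According to the methods, barcode and adaptor were trimmed, reads of 17 to 27 bases were aligned with Bowtie to the genome and RefSeq release 61, and reads overlapping a miRBase miRNA by over 50% were counted. The methods name build mm10 while the labels name mm9. No mismatch setting is given in the sources used here. Hairpin positions were read from an mm9 annotation, and all 3 hairpin sequences were the same as in RefSeq, in whose table all 3 members were found. Sequencing lane was taken from the sample descriptions.

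Counts were filtered with filterByExpr over the 8 groups, scaled by TMM and tested with edgeR 4.0.16 (limma 3.58.1, R 4.3.3), separately for each week (n = 3 against 3) and in a fit of all libraries for means and changes over weeks. p-values were adjusted by Benjamini-Hochberg over 237 miRNAs, and SE is the log2 value divided by the square root of F. The log2 CPM used a prior count of 2 and ratios a pseudocount of 0.5 per count. The step was tested on simulated data. Depth was 1032241 to 3931375 counts, so 3 counts correspond to 0.763 to 2.91 CPM, for counting error only. Alternatives were DESeq2 1.42.0 (size factors and Wald test), library sizes, the classic exact test, other filters, a replicate block, lane, and each library left out. The terms for lane within tumor and within normal were chosen after seeing the data. Named miRNAs were the members, marker miRNAs of epithelial and other cell types, the 5 most like the members by each measure, and other miRNA clusters. The members and lists were chosen with earlier results of these data known.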

Additional observations from a re-analysis of the deposited data

How the results depend on the processing

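The 12 weekly differences of the members kept their direction and passed the threshold under all 10 alternatives, at 1.35 to 2.54 on the log2 scale (highest adjusted p = 0.0183, edgeR or DESeq2), and with each library left out, at 1.20 to 2.59 (highest edgeR adjusted p = 0.0407). Their log2 fold changes over all weeks did so under every alternative, the fits within a lane included (1.56 to 2.53). Scaling by library size moved the median of all miRNAs by −0.14, −0.13, −0.02 and 0.18 at weeks 6, 8, 10 and 12. The number of miRNAs past the threshold was 139, 84, 143 and 120. With a replicate block it was 131 at week 8. With 1 library left out it was 78 to 150 at week 6 (lowest without tumor replicate 2, and 89 without tumor replicate 1), 50 to 81 at week 8 (lowest without tumor replicate 1), 103 to 144 at week 10 and 74 to 120 at week 12 (lowest without tumor replicate 3). Deviations of same-numbered tumor and normal libraries correlated at 0.03 to 0.82 (mean 0.41), over 0.1 in 10 of 12 pairs. The mean for different numbers, −0.18, is no separate comparison, since subtracting the group mean pushes it to the opposite sign. Because 2 pairs of week 12 were below 0.1, not every library correlated best with its own number and the labels do not tie the numbers to mice, the block was kept as an alternative. It changed no call of a member. All libraries numbered 1 were in lane 1 and all numbered 3 in lane 2.

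Of the ratios, with 1 replicate number left out, miR-183 to miR-200 was −0.30 to −0.03, miR-182 to miR-200 −0.50 to −0.23, miR-183 to miR-182 −0.07 to 0.45, miR-96 to miR-183 −0.52 to −0.34 and miR-96 to miR-200 −0.64 to −0.51. Against the geometric mean, miR-182 (−0.14) and miR-96 (−0.30) no longer passed. Within lane 1, miR-96 to miR-200 (−0.43) did not pass. Within lane 2, miR-182 to miR-200 (−0.17) and miR-96 to miR-183 (−0.32) did not and miR-183 to miR-200 (−0.30) did. The cause was not tested. A lane holds 12 libraries and allows far fewer assignments than 160000, so the smallest possible exact permutation p within a lane is larger than 1.25e-05. The differences themselves also moved, with miR-182 to miR-200 at −0.59 in lane 1. Of 390 alternative values with a test, 381 kept their side of the threshold, and none that passed changed direction. Of 67 alternative counts, 62 were within 1.5 times the main count. Having 3 libraries per group limits changes between weeks.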
